A study of Homo sapiens with 4 samples.

Results

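Stem and progenitor cell markers were followed in GATA1 knockdown cells. The group is 8 genes, CD34, EVI1 (now named MECOM), PROM1, KIT, FLT3, CD38, THY1 and MEIS1, and its members were every non-control probe that carries one of these gene names on the array. These came to 12 probes, of 41000 probes with 30499 gene names, and each probe was kept apart. CD34 had 2 probes and EVI1 had 4, while the other genes had 1 each.

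RNA from 2 stable clones of Meg-01, an established human megakaryoblastic leukemia line, was hybridized on 2-colour Agilent whole genome oligonucleotide arrays. The clones, GATA1 5-13 and GATA1 4-14, were infected with lentivirus expressing a GATA1 shRNA, selected with puromycin and grown from colonies in soft agar, so that each descends from an isolated colony. The control, GATA1 Neg, was a pool of Meg-01 cells that carried a lentiviral shRNA with little homology to human genes, and the labels list no drug treatment. RNA of 1 clone shared each of the 4 arrays with the control RNA, and the pair of arrays per clone was a dye swap (array 1 with the knockdown RNA in red, array 2 with it in green). These pairs were therefore counted as 1 replicate each, which leaves n = 2 clones. Since a clone was always set against a pool, the shRNA and the origin from a colony cannot be told apart. The extraction text of the labels names clones of CMK, another megakaryoblastic line, while their other fields and the study's methods name Meg-01.

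CD34, a sialomucin of the cell surface, is the antigen by which blood stem and progenitor cells are commonly selected, and it is lost as these cells mature. EVI1 is a zinc finger transcription factor needed by blood stem cells and activated in some myeloid leukemias, and KIT and FLT3 are receptor tyrosine kinases through which stem cell factor and FLT3 ligand support early progenitors. GATA1, the factor targeted here, drives the erythroid and megakaryocytic lineages and binds DNA at GATA motifs.

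The promoters of the 2 genes with the lowest ratios are shown because the shRNA targets a factor that reads short DNA words. Whether GATA1 acts on these promoters was not tested here. The 250 bases before each start of these genes were taken from RefSeq (GRCh38.p14, minus strand, given 5′ to 3′) and searched on both strands for the words AGATAA and TGATAA and for the variants AGATAG and TGATAG, which all share the core GATA, and matches are in capitals. CD34 held no match at chr1:207911126-207911375. MECOM had 3 starts listed, and which of them these cells used was not tested. Both probes of MDS1, the part of the locus joined to EVI1 in its longer protein, were not well above background in any RNA. At chr3:169663713-169663962 TGATAA lay 31 bases before the start, at chr3:169146540-169146789 AGATAA was found on the opposite strand 29 bases before the start, where it reads TTATCT, and the remaining start had no match.
CD34 promoter: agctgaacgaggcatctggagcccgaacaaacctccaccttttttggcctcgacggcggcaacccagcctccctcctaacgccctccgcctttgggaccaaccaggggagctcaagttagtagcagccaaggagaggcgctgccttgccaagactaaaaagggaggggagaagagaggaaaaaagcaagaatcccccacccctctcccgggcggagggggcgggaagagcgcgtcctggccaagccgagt
MECOM promoter, upstream start: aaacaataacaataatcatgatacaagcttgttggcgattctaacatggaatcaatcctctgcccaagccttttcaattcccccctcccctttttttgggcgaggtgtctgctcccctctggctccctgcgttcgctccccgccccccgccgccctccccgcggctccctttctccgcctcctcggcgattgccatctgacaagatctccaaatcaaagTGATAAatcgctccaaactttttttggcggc
MECOM promoter, downstream start: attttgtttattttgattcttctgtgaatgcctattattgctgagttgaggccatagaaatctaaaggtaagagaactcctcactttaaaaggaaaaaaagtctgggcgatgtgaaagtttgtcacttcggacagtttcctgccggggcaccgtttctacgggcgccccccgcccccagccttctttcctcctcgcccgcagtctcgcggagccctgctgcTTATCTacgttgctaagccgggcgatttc
The same search found no match at the starts listed for KIT, PROM1, FLT3, CD38 and MEIS1, and no start of THY1 was listed. Of 35116 RefSeq promoters of this length, 7840 (22.3%) held at least 1 of these words, and a match is a description of the letters only. That share is per start, and a gene with several starts, such as MECOM, has more chances of a match.

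The GATA1 probe (A_24_P374244, chrX:48535797-48536559, hg18), as a check of the labels, had log2 ratios of knockdown over GATA1 Neg of -0.21 and -0.34 on the 2 arrays of GATA1 5-13. In GATA1 4-14 they were -0.43 and -0.58. The signal stood at 82.7% of GATA1 Neg in GATA1 5-13 and at 70.6% in GATA1 4-14, lower on 4 of 4 arrays. The mean log2 ratio of the clones was -0.39 ± 0.16 (SD, n = 2 clones; limma adjusted p = 0.61, unadjusted p = 0.019).

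In these clones CD34 was far below GATA1 Neg at both probes, EVI1 was below it at 3 of its 4 probes on every array, and KIT was below it mainly in GATA1 4-14. THY1 was measured in every RNA and lay close to GATA1 Neg, and PROM1, CD38, MEIS1 and, on all but 1 array, FLT3 were not well above background. Of the 12 probes, 6 had a log2 ratio below 0 on all 4 arrays (both of CD34, 3 of EVI1 and the probe of KIT), against 13.4% of all 40974 probes tested. No member probe was above 0 on all 4 arrays, against 12.8% of all probes. At a log2 ratio under -1 on every array, 4 member probes remained (both of CD34 and the overlapping pair of EVI1), against 0.139% of all probes. The median over the 12 probes of the mean log2 ratio was -0.493, and over all probes tested it was -0.000221. CD34 gave 2 of the 12 probes and EVI1 gave 4, so that this median is not a value of the genes as a group. The probes of PROM1, THY1, MEIS1, FLT3 and CD38 had means from -0.11 (PROM1) to 0.09 (CD38).

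Both clones entered a two-sided moderated test in limma, in which their mean log2 ratio was compared with 0. After Benjamini-Hochberg adjustment over all probes, 0 member probes passed an adjusted p of 0.05 in limma, as did 0% of all probes. At an unadjusted p under 0.05, 6 member probes were lower (both of CD34 and all 4 of EVI1), against 4.04% of all probes in that direction, and 0 were higher, against 3.38%. An error-weighted mean of the 4 arrays stood in for the combination named in the study's methods, and the 2 were not compared. This mean called 6 member probes lower after adjustment (both of CD34, 3 of EVI1 and KIT) and 0 higher. That setting called 4.31% of all probes lower and 4.02% higher. Because n is 2 clones and GATA1 Neg was on every array, limma's p leaves out the control's own spread. The error-weighted mean counts the 4 arrays and their measurement error, so that its calls do not measure the spread between clones.

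**Figure D1:**
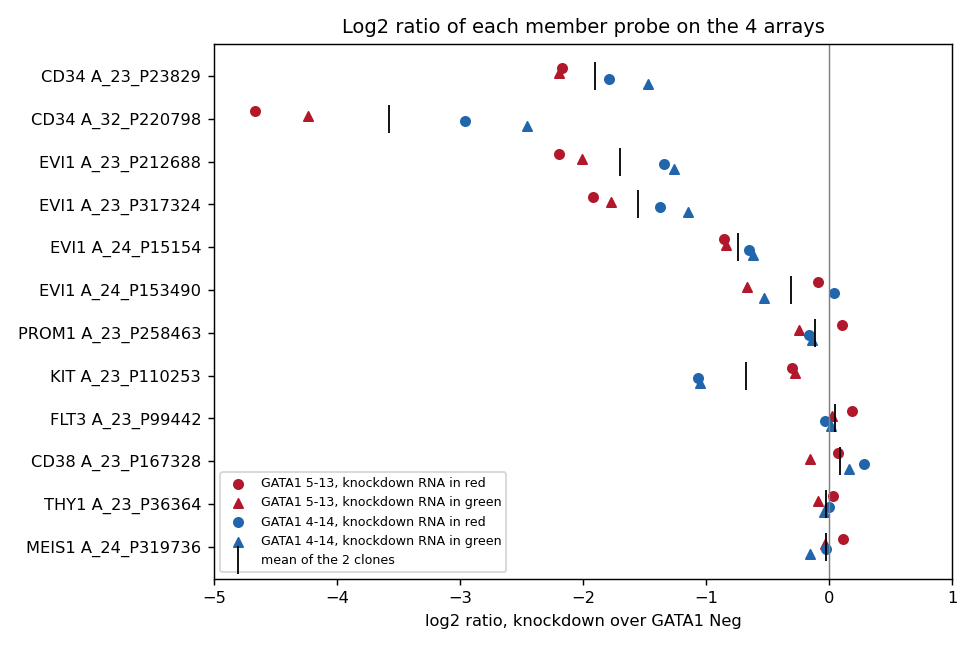
Log2 ratio of knockdown over GATA1 Neg (x axis) of each of the 12 member probes (y axis), with circles for arrays with the knockdown RNA in red, triangles for those with it in green, red for GATA1 5-13 and blue for GATA1 4-14. Vertical bars are the mean of the 2 clones. CD34 and the first 3 EVI1 probes lie left of 0 on all 4 arrays; GATA1 5-13 is the lower clone at the brighter CD34 probe and GATA1 4-14 at KIT.

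CD34 was the member with the lowest ratios. The brighter probe A_32_P220798 (chr1:206126517-206126576, hg18, minus strand) read 11.82, 11.62, 11.84 and 11.56 in GATA1 Neg on the 4 arrays, as normalized log2 intensities. It read 7.15 and 7.38 in GATA1 5-13 and 8.88 and 9.10 in GATA1 4-14. The groups did not overlap, every knockdown reading was well above background, and GATA1 5-13 was the lower clone on both of its arrays. How many of all probes lack such overlap was not counted, so that here and below it only describes the readings of a probe. The log2 ratios were -4.67 and -4.24 in GATA1 5-13 and -2.96 and -2.45 in GATA1 4-14, so that 4.56% and 15.3% of the GATA1 Neg signal was left. Only 1 of the 40974 probes had a lower mean log2 ratio than this probe. The mean was -3.58 ± 1.24 (SD, n = 2 clones), with a 95% confidence interval of -5.16 to -2.0 (limma adjusted p = 0.56, unadjusted p = 0.0053).

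The second CD34 probe, A_23_P23829 (chr1:206127232-206127291), starts 715 bases away and does not overlap the first. In GATA1 Neg it read 8.53, 8.71, 8.59 and 8.53, and in the knockdown RNAs it read 6.36 and 6.51 (GATA1 5-13) and 6.80 and 7.06 (GATA1 4-14). The groups did not overlap here either, but no knockdown reading was well above background, so that the ratio is a bound. CD34 by this probe was at least 3.83-fold lower in GATA1 5-13. For GATA1 4-14 the same rule gave 3.09-fold, set by the probe's own readings (32.3% of GATA1 Neg). It depends on the processing: without background correction the log2 ratio of this clone was -0.71. Such a bound sets the GATA1 Neg level against, on each array, the lowest level among probes well above background in the knockdown channel, or against the probe's own level where that is higher. The log2 ratios were -2.17 and -2.20 in GATA1 5-13 and -1.79 and -1.47 in GATA1 4-14, with a mean of -1.91 ± 0.39 (SD, n = 2 clones; limma adjusted p = 0.45, unadjusted p = 0.0013). Both probes thus had the same sign on every array, and the order of the clones can be read at the brighter probe alone. In bulk RNA of this kind, fewer CD34-expressing cells and less CD34 RNA per cell cannot be told apart.

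**Figure D2:**
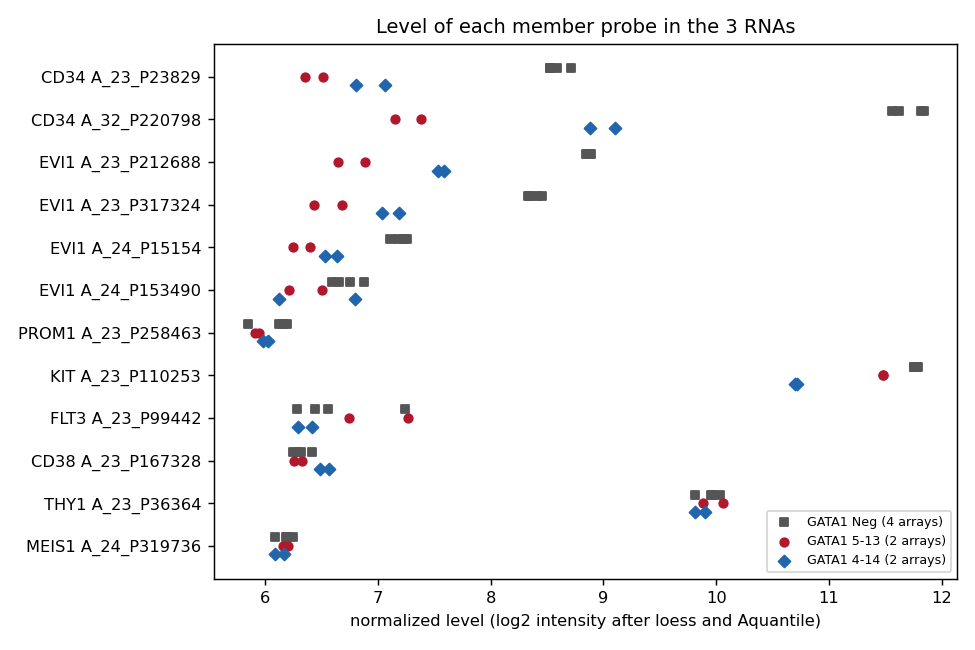
Normalized log2 intensity after loess and Aquantile (x axis) of each member probe (y axis) in GATA1 Neg (grey squares, 4 arrays), GATA1 5-13 (red circles, 2 arrays) and GATA1 4-14 (blue diamonds, 2 arrays). Levels of different probes are not on a common scale. Within a row, CD34, KIT and the first 3 EVI1 probes have no overlap between GATA1 Neg and the clones, and THY1 has. The share of all probes without such overlap was not counted.

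EVI1 was read by 4 probes, and they did not give the same size. A_23_P212688 (chr3:170289513-170289572, hg18, minus strand) read 8.85, 8.89, 8.88 and 8.85 in GATA1 Neg. It read 6.65 and 6.88 in GATA1 5-13, where 1 of the 2 readings was well above background, and 7.53 and 7.59 in GATA1 4-14, where both were. GATA1 Neg varied little between arrays and lay above both clones. The log2 ratios were -2.20 and -2.01 in GATA1 5-13 (23.2% of GATA1 Neg) and -1.35 and -1.26 in GATA1 4-14 (40.5%). The mean was -1.70 ± 0.57 (SD, n = 2 clones), with a 95% confidence interval of -2.45 to -0.96 (limma adjusted p = 0.56, unadjusted p = 0.0051).

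The second EVI1 probe, A_23_P317324 (chr3:170289533-170289592), shares 40 bases with the first, so that the pair is nearly 1 measurement of the same stretch. Its level was 8.35, 8.45, 8.41 and 8.33 in GATA1 Neg, 6.43 and 6.68 in GATA1 5-13, and 7.03 and 7.19 in GATA1 4-14. The groups were again apart, and the GATA1 5-13 readings were not well above background, where EVI1 was at least 3.17-fold lower. In GATA1 4-14 both readings were measured and the log2 ratios were -1.37 and -1.15, or 41.8% of GATA1 Neg. The mean over the clones was -1.55 ± 0.41 (SD, n = 2 clones; limma adjusted p = 0.50, unadjusted p = 0.0028).

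The remaining EVI1 probes lie farther along the gene and were dimmer. A_24_P15154 (chr3:170328367-170328426) starts 38854 bases from the first probe and read 7.11 to 7.26 in GATA1 Neg, 6.25 and 6.40 in GATA1 5-13, and 6.53 and 6.64 in GATA1 4-14. No knockdown reading was well above background, so that EVI1 by this probe was at least 1.41-fold lower in GATA1 5-13, with a bound of 1.34-fold for GATA1 4-14. Its log2 ratios were -0.86 and -0.83, then -0.65 and -0.62, with a mean of -0.74 ± 0.15 (SD, n = 2 clones; limma adjusted p = 0.50, unadjusted p = 0.0025). This probe gives no order of the clones, since neither was measured above background. A_24_P153490, listed under another sequence record than the other EVI1 probes and placed at chr3:170344285-170347234, was well above background on 1 of 4 arrays in GATA1 Neg and on none in the knockdown RNAs. Its log2 ratios went with the dye: they were -0.09 and 0.04 where the knockdown RNA was in red and -0.67 and -0.53 where it was in green, and GATA1 Neg (6.59 to 6.88) overlapped the clones (6.12 to 6.80). The mean of -0.31 ± 0.093 (SD, n = 2 clones; limma adjusted p = 0.60, unadjusted p = 0.017) therefore rests on readings near background.

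The size at the dim probes moved with the processing. When the log ratios of Feature Extraction were used, which subtract the background, the mean log2 ratio of CD34 at A_23_P23829 was -3.53 and that of EVI1 at A_24_P15154 was -2.50. Without background correction, these means were -0.79 and -0.21. The first EVI1 probe, A_23_P212688, was at -2.65 and -0.82 under these settings, and A_23_P317324 at -2.93 and -0.64. The brighter CD34 probe ranged from -4.15 to -2.65 over the alternatives with a test. The Feature Extraction values left 1 member probe (EVI1 A_24_P15154, unadjusted p = 0.030 in limma) lower at an unadjusted p under 0.05.

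KIT, the receptor of stem cell factor, was the only member receptor kinase well above background in every RNA. Its probe A_23_P110253 (chr4:55301268-55301327, plus strand) is printed 10 times on the array. The level was 11.78, 11.75, 11.79 and 11.75 in GATA1 Neg, 11.48 and 11.48 in GATA1 5-13, and 10.72 and 10.70 in GATA1 4-14. All 3 groups were apart, with GATA1 4-14 the lowest. The log2 ratios were -0.31 and -0.28 in GATA1 5-13 (81.7% of GATA1 Neg) and -1.07 and -1.05 in GATA1 4-14 (48.0%). The mean was -0.67 ± 0.54 (SD, n = 2 clones), and its 95% confidence interval of -1.39 to 0.04 reached past 0 (limma adjusted p = 0.68, unadjusted p = 0.057).

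The repeated spots of KIT give the error within an array. In GATA1 5-13 the spots ranged from -0.35 to -0.28 (SD 0.018) on array 1 and from -0.34 to -0.22 (SD 0.038) on array 2. In GATA1 4-14 they ranged from -1.13 to -0.99 (SD 0.042) and from -1.09 to -1.0 (SD 0.028). The spots of the clones did not overlap, and every spot was below 0. Spots are not biological replicates, and with 1 culture per clone the difference between the clones, 0.77 on the log2 scale for GATA1 5-13 minus GATA1 4-14, has no test. This order was opposite to that at the brighter CD34 probe, where the same difference was -1.75, and at EVI1 A_23_P212688, where it was -0.80 with 1 of the 2 readings of GATA1 5-13 above background. The other CD34 and EVI1 probes were not well above background in 1 or both clones, and their differences are not given. KIT passed an unadjusted p of 0.05 in 9 of the 15 alternatives with a test.

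**Figure D3:**
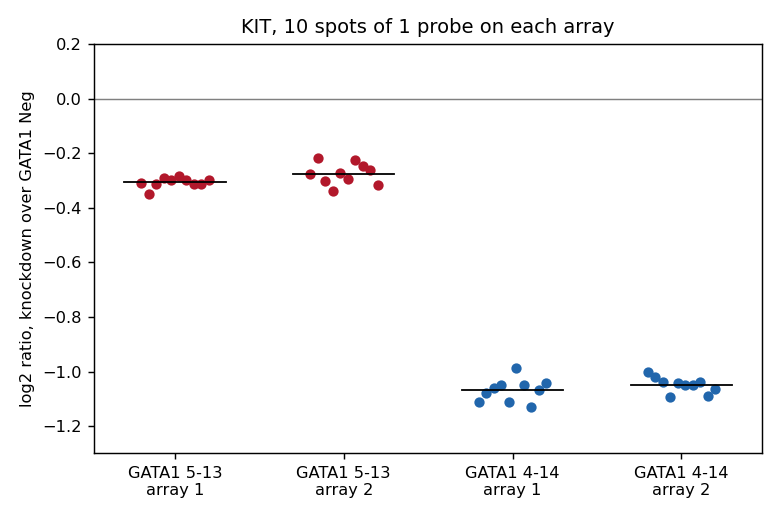
Log2 ratio of knockdown over GATA1 Neg (y axis) at each of the 10 spots of the KIT probe on each array (x axis), red for GATA1 5-13 and blue for GATA1 4-14; black lines are the means of an array. Spots of GATA1 5-13 lie between -0.35 and -0.22, and those of GATA1 4-14 between -1.13 and -0.99.

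THY1, a small glycoprotein anchored in the membrane by lipid and found on primitive CD34+ cells, was the member measured in every RNA that differed least. At A_23_P36364 (chr11:118794181-118794240) it read 10.03, 9.97, 9.81 and 9.95 in GATA1 Neg, 10.06 and 9.88 in GATA1 5-13, and 9.81 and 9.91 in GATA1 4-14. The groups overlapped and the log2 ratios lay between -0.09 and 0.03. The mean was -0.03 ± 0.0044 (SD, n = 2 clones), with a 95% confidence interval of -0.19 to 0.14 (limma adjusted p = 0.93).

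FLT3, CD38, PROM1 and MEIS1 gave little to measure. For FLT3 (A_23_P99442, chr13:27475993-27476052) both RNAs were well above background on 1 array, the second of GATA1 5-13, with 7.24 in GATA1 Neg and 7.27 in the clone. On the other arrays GATA1 Neg read 6.28 to 6.56, and the 4 log2 ratios ran from -0.03 to 0.19 (mean 0.05; limma adjusted p = 0.88). CD38, an ectoenzyme that appears as progenitors commit, was not well above background in either RNA on any array at A_23_P167328 (chr4:15459283-15459342), with log2 ratios from -0.16 to 0.28 (limma adjusted p = 0.84). The same held for PROM1 (A_23_P258463, chr4:15579755-15579814), the pentaspan membrane protein known as CD133, with log2 ratios from -0.25 to 0.10 (limma adjusted p = 0.72). MEIS1, a homeobox partner of HOX proteins, was also below that limit throughout (A_24_P319736, chr2:66652830-66652889), with log2 ratios from -0.15 to 0.12 (limma adjusted p = 0.95). For these genes a difference was not detectable at this signal, which does not show that the levels were alike.

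**Figure D4:**
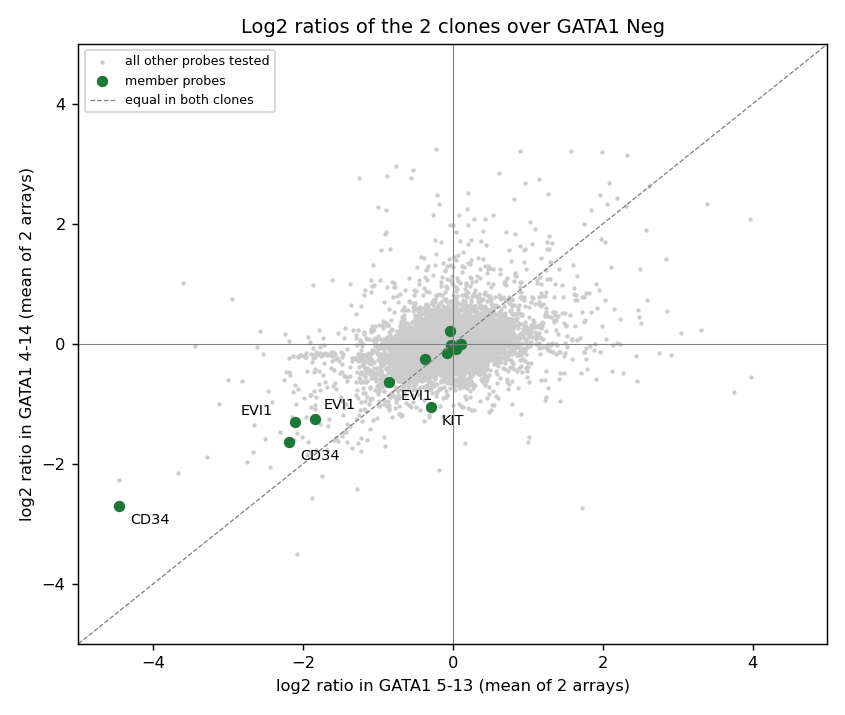
Mean log2 ratio of 2 arrays in GATA1 5-13 (x axis) against that in GATA1 4-14 (y axis) for the 12 member probes (green) and all other probes tested (grey); the dashed line marks equal ratios. The brighter CD34 probe, at -4.45 and -2.70, lies to the left of the dashed line, and KIT, at -0.29 and -1.06, lies to its right; the dimmer CD34 probe and 3 of the 4 EVI1 probes were not well above background in at least 1 clone.

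Partners of the members were read from lists chosen for their role, with earlier results of these data known. The counts of these lists are therefore descriptions and no test. Stem cell factor (KITLG) had 3 probes, of which 2 were not well above background in any RNA, and the third (A_24_P133253) was well above it in GATA1 Neg on 3 of 4 arrays with log2 ratios of 0.32, 0.56, -0.21 and 0.02. FLT3 ligand (FLT3LG, A_23_P78742) was measured in every RNA with log2 ratios of 0.30, 0.02, -0.02 and -0.25. No ligand probe passed an unadjusted p of 0.05 in limma, in either direction. Both probes of MDS1, whose exons are spliced to EVI1 in the longer protein of the locus, were not well above background in any RNA, and of the 7 probes of MDS1 and other PR-domain genes 0 passed.

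Among 12 probes of receptor kinases related to KIT and FLT3, 2 were lower and 2 higher at an unadjusted p under 0.05 in limma. Both lower ones were of KDR, a receptor for vascular endothelial growth factor, with log2 ratios of -2.64, -2.67, -1.39 and -1.32 at A_24_P71973 (limma adjusted p = 0.58). At the second KDR probe, A_23_P58419, the level in GATA1 5-13 was not well above background and at least 4.33-fold lower. KDR had the same clone order as CD34, and over the alternatives this list gave 0 to 3 lower and 0 to 2 higher probes. PDGFRA (A_23_P300033) was among the higher ones, at 0.09, 0.22, 0.35 and 0.36 (limma adjusted p = 0.67). Of 34 probes of adaptors, phosphatases and inhibitors of KIT and FLT3 signalling, 2 were lower (DOK1, mean log2 ratio -0.26, and SOS1, -0.23) and 2 higher (GRB2, 0.26, and SPRY1, 0.21), or 5.88% each way against 4.04% and 3.38% of all probes. That list's median was 0.0263, and over the alternatives it gave 1 to 5 lower and 1 to 9 higher probes. For MEIS1 partners and relatives 2 of 22 probes were lower, among them PKNOX1 (-0.19), and 0 higher. Of 4 probes of genes related to CD34, PROM1 and CD38, 1 was higher (PODXL2, 0.24). No probe of any of these lists passed an adjusted p of 0.05.

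Of 74 probes of 46 other stem and progenitor genes, 13 were lower and 4 higher at an unadjusted p under 0.05 in limma, or 17.6% and 5.41% against 4.04% and 3.38% of all probes. Of the 74, 28 (37.8%) were below 0 on all 4 arrays, against 13.4% of all probes. Above 0 on all 4 arrays were 6 (8.11%), against 12.8% of all probes. At least 1 RNA was above background on all 4 arrays for 57 of the 74, against 24668 of all 40974 probes. The part of brightness in these shares was not tested. The list's median was -0.109, and this list too was chosen with earlier results of these data known. Both probes of ESAM were among the largest in size that passed; ESAM, an adhesion molecule of endothelium and stem cells, had a mean of -1.0 ± 0.018 (A_24_P13190; limma adjusted p = 0.38) and -0.86 ± 0.039 (A_23_P47410; limma adjusted p = 0.40; SD, n = 2 clones). ESAM was alike in size in the clones, at -0.99 and -1.01 by the first probe. PTPRC, the leukocyte common antigen CD45, stood at -0.96 in GATA1 5-13 and -0.34 in GATA1 4-14 at A_23_P125451, while its second probe, A_23_P12392, read -0.12 and -0.19 and was not well above background in any RNA. ERG, an ETS factor of stem cells, stood at -0.96 and -0.32 at A_23_P57323. PROCR, the endothelial protein C receptor, was higher, at 1.31 and 0.45. Over the alternatives this list gave 10 to 26 lower and 2 to 7 higher probes, and 0 passed adjustment in limma on the clones.

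**Figure D5:**
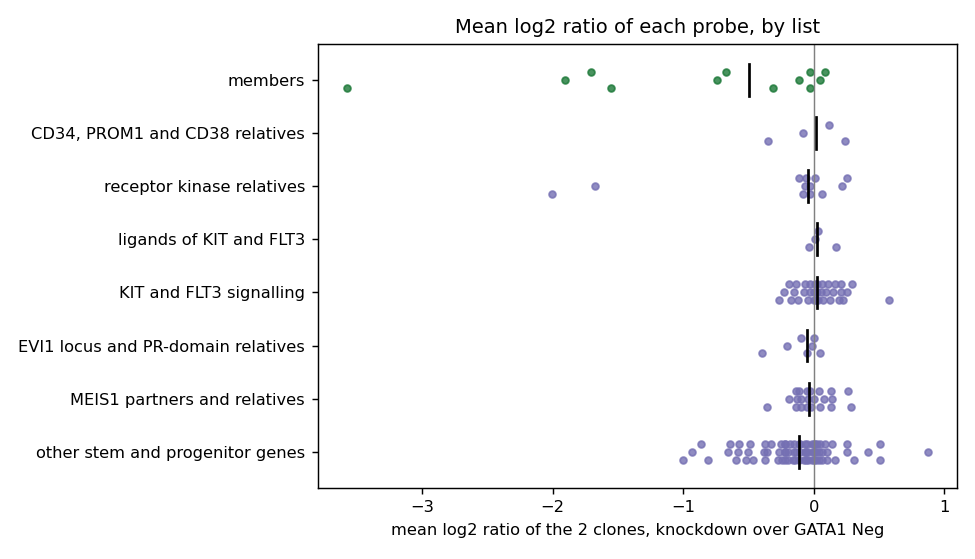
Mean log2 ratio of the 2 clones (x axis) of each probe, for the 12 member probes (green) and 7 lists of related genes (purple); points are offset vertically to separate them and black bars are medians. Members have a median of -0.493 by probe, with 2 probes of CD34 and 4 of EVI1 among the 12. The other stem and progenitor genes have a median of -0.109, and KDR gives the 2 points on the left among the receptor kinase relatives.

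Lineage markers were read beside these results at an unadjusted p under 0.05, at which 4.04% of all probes were lower and 3.38% higher. The share lower was 11.8% of the megakaryocyte, 10.5% of the erythroid and 12.5% of the granulocyte and monocyte probes. These shares rest on 1 or 2 probes each. Of 17 megakaryocyte probes, 2 were lower (both of ITGA2B, mean log2 ratio -0.30 and -0.29), and the mean level over the list was 7.85 to 7.87 in GATA1 5-13 and 7.99 to 8.0 in GATA1 4-14, against 8.01 to 8.06 in GATA1 Neg. Over the alternatives this list gave 0 to 5 lower probes. GP1BA, GP5, PF4, SELP and VWF were not above background in any RNA. Of 19 erythroid probes 2 were lower (HBE1, mean log2 ratio -0.44, and AHSP, named ERAF on the array, -0.33). Both were dim: in the knockdown RNAs HBE1 was well above background on 0 of 4 arrays and AHSP on 1. Of 8 granulocyte and monocyte probes 1 was lower (ITGAM, -1.52). The mean level of the granulocyte and monocyte list was 7.08 to 7.09 in GATA1 5-13, 7.28 to 7.30 in GATA1 4-14 and 7.37 to 7.46 in GATA1 Neg. The erythroid list stood at 11.54 to 11.55 in GATA1 5-13, above GATA1 Neg (11.29 to 11.45), and at 11.14 to 11.21 in GATA1 4-14, below it. The stromal list stood at 6.30 to 6.34 in GATA1 5-13 and 6.59 to 6.63 in GATA1 4-14, on either side of GATA1 Neg (6.37 to 6.44). The lymphoid list read 7.17 to 7.18 in GATA1 5-13, 7.15 in GATA1 4-14 and 7.07 to 7.16 in GATA1 Neg, and the endothelial list overlapped between the groups. In GATA1 Neg, 10 of 17 megakaryocyte and 17 of 19 erythroid probes were above background. Of the other lists, 2 of 8 granulocyte and monocyte, 3 of 8 lymphoid, 1 of 4 endothelial and 1 of 8 stromal probes were. The mean levels of these other lists therefore rest mostly on readings near background. None of 8 lymphoid, 4 endothelial and 8 stromal probes passed an unadjusted p of 0.05, and the part of the lineage lists in the results above was not tested.

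The probes most like the members were found by Euclidean distance over the log2 ratios of the 4 arrays, among 24504 probes well above background in GATA1 Neg on every array, and the distance is a description over 4 values that share 1 control RNA. For CD34 (A_32_P220798) they were C5orf23 (distance 0.668), RP11-393H10.2, now MAP7D2 (1.54), NPR3 (2.06), MS4A3 (2.64) and NLRC3 (2.86). C5orf23 had log2 ratios of -4.61, -4.29, -2.36 and -2.16. It lies at chr5:32827474-32827533 and the NPR3 probe at chr5:32822128-32822187, next to it on the chromosome. Whether these probes read separate genes or the same gene was not tested. For EVI1 (A_23_P212688) they were IL1A (0.235), KDR (0.241), GNA14 (0.257), a second NPR3 probe (0.388) and CYYR1 (0.398). In the knockdown RNAs, C5orf23 and the first NPR3 probe were well above background on 3 of 4 arrays. IL1A, KDR (A_23_P58419) and the second NPR3 probe were so on 2 of 4, and the other probes named here on all 4. EVI1 A_23_P212688 itself was so on 3 of 4. Several of these ratios and distances therefore rest in part on readings near background.

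The arrays were alike in quality. Between 61.6% and 66.4% of spots were well above background in a channel, 135 to 152 spots per array carried an outlier mark, and 0 were saturated. Across 40974 probes the log2 ratios correlated at 0.806 between the arrays of GATA1 5-13 and at 0.641 between those of GATA1 4-14, with 0.387 and 0.409 between clones at the same dye orientation and 0.171 and 0.216 at opposite orientation. The number of arrays limits the precision of every value given.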

How the data were processed

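Two-colour arrays of 2 GATA1 shRNA clones of Meg-01 against GATA1 Neg were used, 4 in all. The authors deposited spot and local background intensities of both channels, as scanned with Agilent Feature Extraction 9.5.3.1 and without normalization; probe positions are on hg18. The deposited log10 ratio of each spot came from background-subtracted, dye-normalized signals, and has an error from the same program. The authors' deposited table for the series held these log10 ratios turned to knockdown over control (largest difference 4.97e-06). The Rosetta Resolver combination could not be repeated and was not used here.

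Intensities were corrected with normexp (offset 50) and loess in limma 3.58.1 (R 4.3.3, data.table, version 1.17.8), with control spots at weight 0 in loess and left out afterwards, as were outlier spots. Spots of a probe and then the 2 arrays of a clone were averaged, and the mean of the clones was tested against 0 with limma's moderated test, adjusted by Benjamini-Hochberg over 40974 probes. Levels were taken per channel after Aquantile. The code was tested on simulated data.

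Members, lists and tests were chosen with earlier results of these data known. Named were all member probes, every probe of KITLG, FLT3LG and MDS1, and, per list, up to 5 probes past an unadjusted p of 0.05 with the same sign on 4 arrays and above background in the brighter RNA, by size. Likeness was given for members whose brightest probe had a mean log2 ratio of at least 1 in size, as the 5 nearest probes.

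As alternatives, the background was left uncorrected, the deposited log ratios or the table of the series replaced those from intensities, loess was replaced by median centring or followed by Aquantile, dim probes were dropped, outlier spots were retained, and the moderation was given an intensity trend. The 4 arrays were also taken as 4 values, with the array number as a replicate block or not, combined by an error-weighted mean, and each array and each clone was omitted in turn. Arrays with the same number share the dye orientation, and their deviations from the clone mean correlated at 0.773; number and dye coincide, so that a shared culture or day cannot be told apart from the dye.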

Additional observations from a re-analysis of the deposited data

How the results depend on the processing

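The count of member probes lower at an unadjusted p under 0.05 was 6, and 6 to 8 under the alternatives other than Feature Extraction's log ratios and the series-wide table, which hold the same values and gave 1 each. These were not always the same probes: without the second array of GATA1 5-13, EVI1 A_24_P153490 dropped out (-0.17, unadjusted p = 0.11 in limma) and KIT entered (unadjusted p = 0.039), and without the second array of GATA1 4-14 the same EVI1 probe had an unadjusted p of 0.27 in limma. After adjustment the count was 0 in limma on the clones, 5 with the 4 arrays as 4 values and no replicate block, 2 with the replicate block and 6 with the error-weighted mean, where all probes were called at 3.03%, 0.657% and 8.33%. The replicate block left CD34 A_23_P23829 (adjusted p = 0.040) and EVI1 A_24_P15154 (adjusted p = 0.045) past the threshold in limma. Values that changed sign were near 0. MEIS1 was 0.0027 without background correction. With 1 array left out, THY1 ran from -0.055 to 0.0034 (above 0 without the second array of GATA1 5-13) and MEIS1 from -0.062 to 0.014 (above 0 without the second array of either clone). Of 175 values of member probes under an alternative with a test, 158 kept their direction (or were listed at 0) and their side of the adjusted threshold, 13 passed it newly and 4 changed sign. With either clone left out, the value is that of the other clone, as given in the report. Probes near background limit CD38, PROM1, MEIS1, FLT3 and the dimmer EVI1 probes.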
